A study of Capra hircus with 6 samples.

Results

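The 10 host genes followed here are hosts of widely conserved circular RNAs, genes whose circular products are much studied in human and mouse: ARHGAP10, CAMSAP1, ESYT2, PICALM, UBAP2, FBXW7, HIPK3, SMARCA5, ZNF609 and CDYL. They are 10 of the 6422 host genes with circular RNA in the longissimus dorsi (a long back muscle) of Haimen goats. All 10 had reads. They were chosen by name and by no rule on the values below, but with earlier results of these data known. Conservation between species was not measured here. Of 25500 listed entries, 125 belonged to these hosts, 95 by gene symbol and 30 by a gene number on the same chromosome and strand within the span of the symbol's entries. Entries whose starts lay 1 base apart and whose ends were equal were added together, which left 105 circular RNAs of 23978. The kid group has 3 libraries, taken 1 day after birth, and the fetus group 3, taken at day 75 of gestation, as the sample titles group them. The labels give no sex, treatment or genotype for either group. Nor do they say whether every library is a different animal, and p-values therefore refer to library-to-library spread, which may be technical.

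A circular RNA (circRNA) forms when the spliceosome joins the end of an exon back to the start of the same or an earlier exon, a reaction called back-splicing. The closed product has no free ends, resists exonucleases such as RNase R and therefore tends to outlast its linear counterpart. One gene can yield several circRNAs that differ in their outer exons, and these can compete with each other and with linear splicing for the same transcript. A few circRNAs, among them those of exon 2 of HIPK3 and exon 2 of ZNF609, are made from matching exons in several mammals, and the ZNF609 circle has been studied in human and mouse muscle precursor cells. Reads that cross a back-splice junction count circular molecules of a gene and not its mRNA. Each circRNA has a single junction, so levels were not divided by length.

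The libraries held 77111, 42695 and 73922 back-splice reads in kid and 36484, 33222 and 56467 in fetus. The 10 hosts supplied 1.19%, 1.20% and 1.23% of them in the kid libraries and 1.27%, 1.23% and 1.18% in the fetus libraries, so together they took about the same share at both stages. Libraries fetus 1 and fetus 2 retained 70.7% and 69.1% of their raw reads once trimmed, while the remaining 4 retained 84% to 87.9%. With fetus 3 as the lone fetus library, assumed to vary like the kid libraries, none of the 10 hosts passed the test used below. All 12 skeletal muscle markers had circular RNA, with a summed level of 20479 to 26858 CPM (back-splice reads scaled to library size) in kid and 13022 to 13892 CPM in fetus. Connective tissue markers (6 of 7 with reads, DCN at 0) summed to 103 to 359 CPM in kid and 730 to 1267 CPM in fetus. Endothelial markers (6 of 7, CDH5 at 0) summed to 148 to 193 CPM in kid and 104 to 354 CPM in fetus. Of the immune, smooth muscle and fat markers 1 each had reads, with PTPRC, MYH11, ACTA2 and ADIPOQ at 0, and no library exceeded 74.4 CPM for any of these lists. The part of these shifts in the results below was not tested, and in whole muscle fewer cells of a type and less RNA per cell cannot be told apart.

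The 10 hosts spanned 1970 reads to 9 reads. ARHGAP10 (1970 reads) ranked 8 among all hosts by reads and CAMSAP1 (1189) ranked 22. PICALM (235), UBAP2 (212) and ESYT2 (107) followed, then HIPK3 (81) and SMARCA5 (41). ZNF609 (23), FBXW7 (13) and CDYL (9) had too few reads to test. In kid the order by mean CPM was ARHGAP10, CAMSAP1, PICALM, UBAP2, HIPK3 and ESYT2. In fetus CAMSAP1 stood first, above ARHGAP10, and ESYT2 stood above HIPK3. PICALM and UBAP2 were neighbours at both stages and their libraries overlapped at each, as did those of HIPK3 and ESYT2 in kid.

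A host was tested where 3 or more libraries had 5 or more of its reads. Of the 7 such hosts, 1 was higher in kid (ARHGAP10), 2 were lower (CAMSAP1 and ESYT2) and 4 did not pass (edgeR quasi-likelihood test, Benjamini-Hochberg adjusted p under 0.05). Over all 1755 hosts tested, 19.3% passed, 11.1% higher and 8.21% lower in kid. In 3 of the 7 hosts kid and fetus libraries did not overlap, against 37.0% of all tested hosts. The median log2 fold change of kid over fetus was -0.09 in the 7 hosts and 0.01 in all tested hosts. Called hosts divided into 194 higher and 144 lower with TMM scaling, into 135 higher and 203 lower with total back-splice reads as the only scaling, and into 122 higher and 78 lower with valid reads. Total back-splice reads shifted the median of all hosts to -0.20, and the 3 calls among the 10 hosts kept their directions under it.

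**Figure D1:**
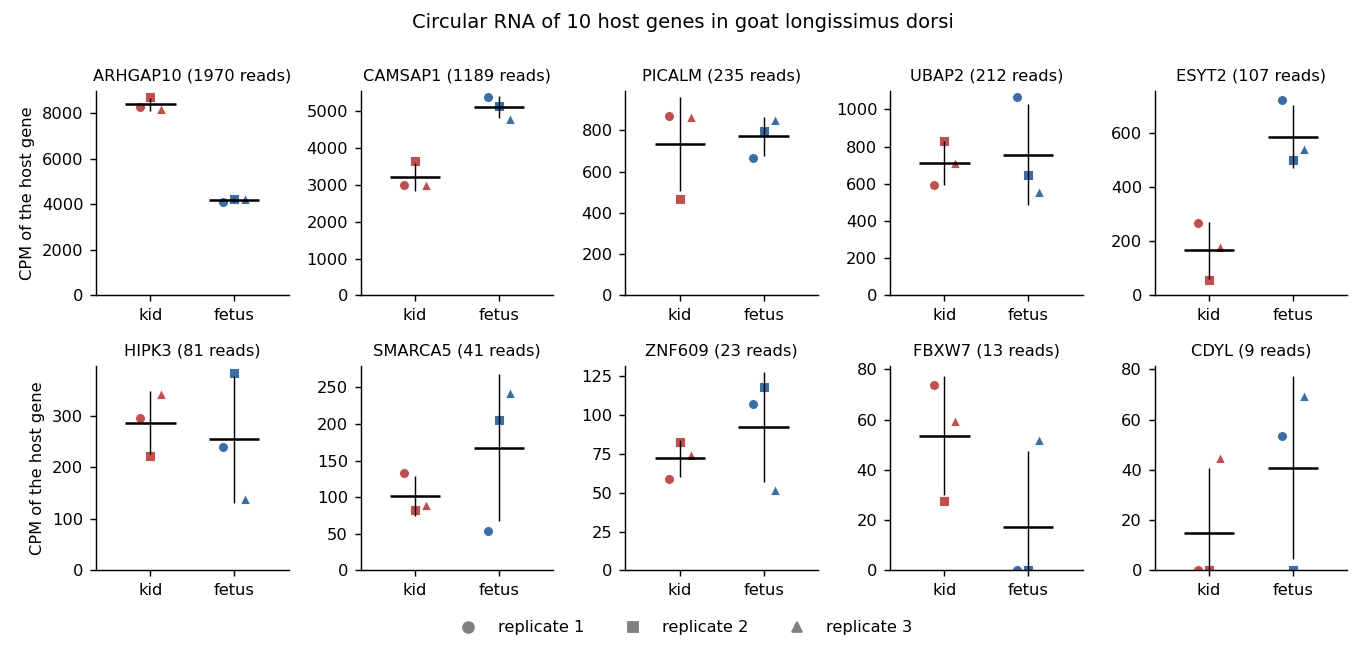
Circular RNA of each host gene in CPM (back-splice reads scaled to library size; vertical axis, from 0) for kid and fetus; symbols mark the 3 libraries of a stage, horizontal lines the mean and vertical lines the SD. ARHGAP10 was higher in all kid libraries (8403 ± 287 against 4202 ± 83.4 CPM), CAMSAP1 and ESYT2 were lower in all of them, and the other hosts overlap between stages.

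ARHGAP10 and CAMSAP1 encode cytoskeletal regulators. ARHGAP10 is a GTPase-activating protein of the GRAF family. It had circular RNA at 8278, 8731 and 8201 CPM in kid and at 4106, 4243 and 4257 CPM in fetus. The 3 libraries of a stage lay close together and the stages were far apart. Its level was 8403 ± 287 CPM in kid and 4202 ± 83.4 CPM in fetus (SD, n = 3 each). The log2 fold change was 1.00 ± 0.17 (SE), a 2.0-fold higher level in kid (edgeR, adjusted p = 2.23e-04). It passed when any single library was left out (adjusted p = 2.51e-04 to 0.00481), but with fetus 3 alone the change was 0.95 with an adjusted p of 0.0695.

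The ARHGAP10 reads came from 33 exonic circRNAs on chromosome 17, plus strand, between 60583724 and 60858799 in the files' coordinates (genome build not given in the sources used here). Exons are numbered as in the files. The leading circle, listed as circRNA1238, joined exon 18 back to exon 14 (5 exons, 488 bases, 60720268 to 60747148). It had 349, 201 and 346 reads in kid and 60, 60 and 125 in fetus. Scaled to depth, this was 4908, 5166 and 5009 CPM in kid and 1529, 1644 and 2055 CPM in fetus. Every kid library stood above every fetus library. The mean was 5028 ± 130 CPM in kid and 1742 ± 277 CPM in fetus (SD, n = 3 each), with a log2 fold change of 1.52 ± 0.18, or 2.87-fold (edgeR, adjusted p = 2.34e-04). This call held when any single library was left out and was lost with fetus 3 alone (1.20, adjusted p = 0.0798).

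The other ARHGAP10 circles did not all follow the leading one. A circle of exons 13 to 15 (circRNA1234, 229 bases) had 25, 13 and 14 reads in kid and 4, 2 and 2 in fetus, or 296 ± 81.4 CPM against 63.2 ± 35.3 CPM (SD, n = 3 each). It was 4.76-fold higher in kid (log2 2.25 ± 0.56, edgeR adjusted p = 0.0176). It reached 5 reads in kid libraries only, so its high level in kid brought it into the test and the p is no independent support. On so few reads the call was lost without fetus 2 (adjusted p = 0.0753), without fetus 3 (0.0736) and with DESeq2 (0.0678), and without a kid library the circle had too few reads to be tested. A circle of exons 14 to 16 (circRNA10429, 222 bases) had 58, 36 and 79 reads in kid and 30, 22 and 28 in fetus. Its stages did not overlap in CPM, with a log2 fold change of 0.67 ± 0.28 (edgeR, adjusted p = 0.135). The circle of exons 13 to 18 (circRNA7603, 554 bases) had 22, 9 and 20 reads in kid and 5, 4 and 5 in fetus. Its log2 fold change was 1.41 ± 0.45 with an adjusted p of 0.0562, just outside the threshold. The circle of exons 16 to 18 (circRNA1241, 325 bases) had 47, 16 and 44 reads in kid and 34, 15 and 40 in fetus, which overlapped in CPM (log2 -0.16 ± 0.34, edgeR adjusted p = 0.806). The circle of exons 15 to 18 (circRNA7605, 413 bases) had 21, 15 and 14 reads in kid and 5, 9 and 19 in fetus, and it overlapped as well (log2 0.30 ± 0.45, adjusted p = 0.72).

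**Figure D2:**
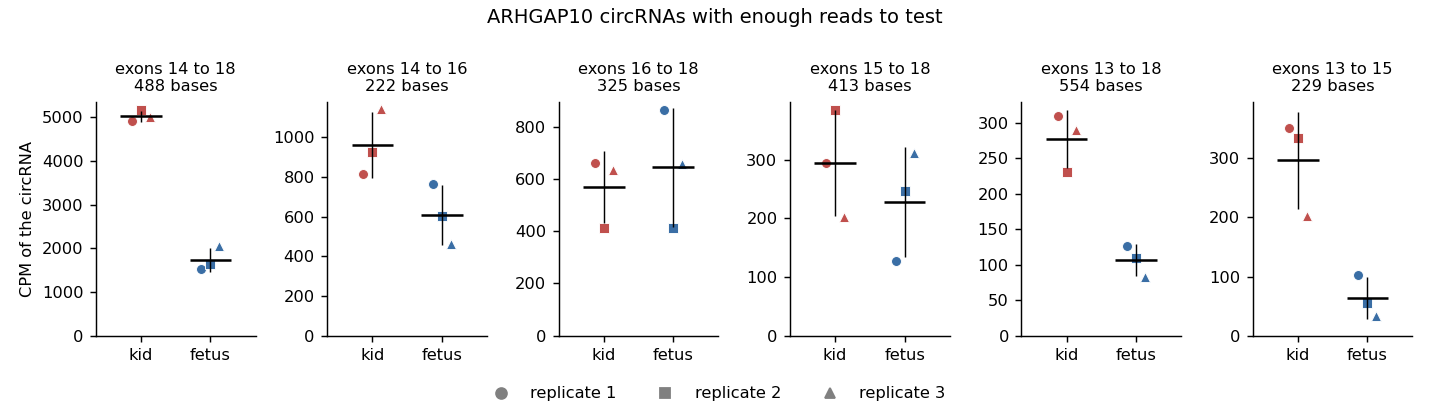
CPM (vertical axes, from 0, a scale for each panel) of the 6 ARHGAP10 circRNAs with enough reads to test, in kid and fetus; symbols mark the libraries, horizontal lines the mean and vertical lines the SD. The circles of exons 14 to 18, 14 to 16, 13 to 18 and 13 to 15 lie higher in every kid library, while those of exons 16 to 18 and 15 to 18 overlap between stages.

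Because these circles draw on the same exons, the share of each within the gene was also compared. The leading circle held 62.3%, 63.6% and 62.8% of the ARHGAP10 reads in the kid libraries and 39.0%, 41.7% and 51.0% in the fetus libraries. The Wilson 95% intervals were 58.2% to 66.2% in kid 1 and 44.8% to 57.2% in fetus 3, and like all intervals here they cover counting error only. The share was 62.9% ± 0.650 in kid and 43.9% ± 6.33 in fetus, and every kid library was above every fetus library (exact permutation test, two-sided, p = 0.100, the smallest that 3 libraries against 3 allow). A test of unequal change across the 6 tested circles of the gene, that of exons 13 to 15 included, gave F = 5.57 with an adjusted p of 0.0149 (edgeR diffSpliceDGE). Because the circle of exons 13 to 15 met the read filter in kid libraries only, this p is not fully independent support. ARHGAP10 ranked 14 of 374 hosts in that test, and 7.75% of the 374 passed. Taken singly, none of the 6 circles passed as different from the rest of the gene (diffSpliceDGE). The leading circle had a log2 difference of 0.27 with an adjusted p of 0.853. The lowest adjusted p was 0.0797, for circRNA1241, with a log2 difference of -0.89. The F test therefore does not single out the leading circle. With the leading circle taken out of the sum, the host's log2 fold change was 0.48 (edgeR, adjusted p = 0.121). The unequal change passed without fetus 1, and it was lost when any of the other 5 libraries was left out (adjusted p = 0.0545 to 0.0926), with valid reads as library sizes (0.184) or with neighbouring entries kept apart (0.706).

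The ARHGAP10 reads were concentrated on few splice sites. Circles starting at 60720268, the start of exon 14, took 76.9% of its reads in kid and 63.5% in fetus. Circles ending at 60747148, the end of exon 18, took 78.0% in kid and 71.1% in fetus. The start at 60733734, used by the circle of exons 16 to 18, took 7.85% in kid and 16.6% in fetus. Far upstream, at the first back-splice start, a circle of exons 2 and 3 (158 bases) had 4, 3 and 4 reads in kid and 4, 5 and 5 in fetus, lower in CPM in every kid library but with too few reads to test. A circle of exons 14 to 17 (328 bases) had no read in kid and 2, 3 and 4 reads in fetus.

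**Figure D3:**
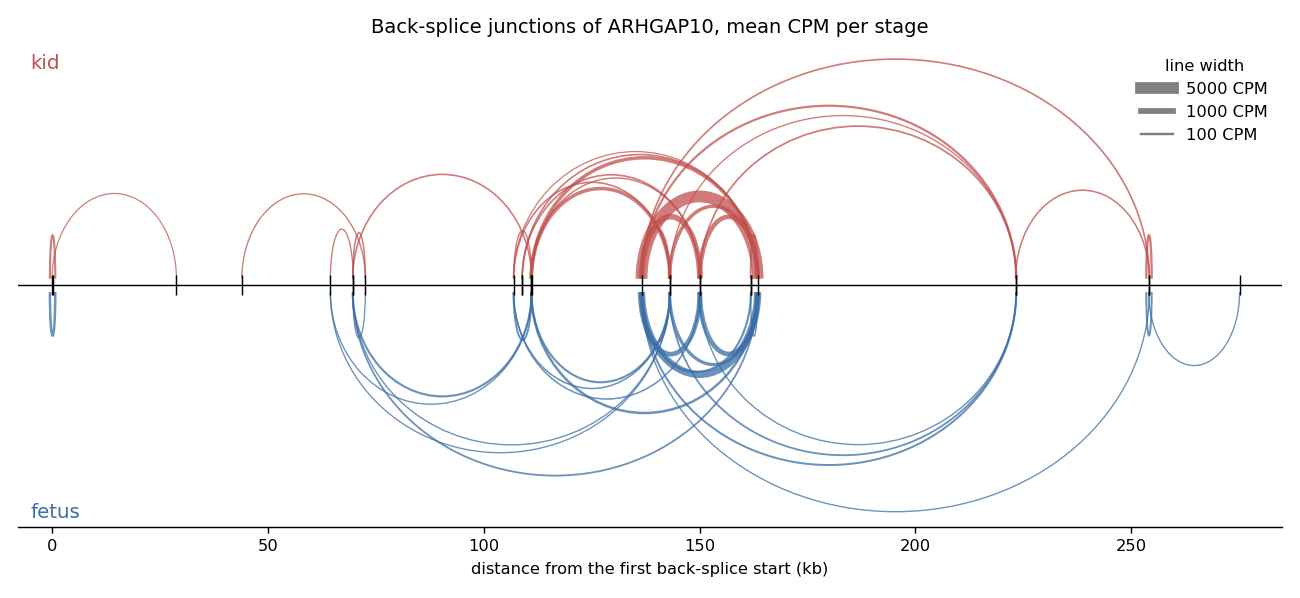
Back-splice junctions of ARHGAP10 along the gene (horizontal axis, kb from the first back-splice start), drawn as arcs between the joined sites, kid above the line and fetus below; arc width follows the mean CPM of the stage. The widest arc, the circle of exons 14 to 18, is wider in kid (5028 CPM) than in fetus (1742 CPM), and 6 circles share its start and 8 its end, itself included.

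CAMSAP1, which binds the minus ends of microtubules, went the other way. It had 2986, 3647 and 3006 CPM in kid and 5386, 5156 and 4796 CPM in fetus, and the stages did not overlap. The level was 3213 ± 376 CPM in kid and 5113 ± 297 CPM in fetus (SD, n = 3 each), 1.60-fold lower in kid (log2 -0.67 ± 0.18, edgeR adjusted p = 0.0136). The call was lost without fetus 1 (adjusted p = 0.0503), without kid 1 (0.0662), with valid reads as library sizes (0.235), without the read filter (0.0826) and with fetus 3 alone (0.249), while the log2 fold change stayed between -0.74 and -0.56 in all fits that left out a library.

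Nearly all CAMSAP1 reads came from a single circle. A circRNA of exons 3 and 4 (circRNA2881, 425 bases, chromosome 11, minus strand, 102883877 to 102885038) held 99.8% of them, with 202, 132 and 202 reads in kid and 200, 175 and 276 in fetus. Every kid library was below every fetus library in CPM, at 3052 ± 297 CPM in kid and 4809 ± 279 CPM in fetus (SD, n = 3 each). Its log2 fold change was -0.66 ± 0.17 (edgeR, adjusted p = 0.0194), and it passed when fetus 3 or kid 2 was left out but not when one of the other 4 libraries was (0.0529 to 0.0664), nor with valid reads as library sizes (0.227) or without the read filter (0.468). The only other CAMSAP1 circle, of exons 3 to 7, had 2 reads, both in fetus 1. Among 306 hosts with at least 200 reads, the leading circRNA held a median of 70.3% of the reads (quartiles 48.2% and 91.7%). CAMSAP1 lay above 295 of the others, ARHGAP10 with 57.9% lay below 202, UBAP2 with 39.6% below 254 and PICALM with 20.0% below 298.

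ESYT2 and PICALM encode proteins that act at membranes. ESYT2, extended synaptotagmin 2, tethers the endoplasmic reticulum to the plasma membrane and moves lipids between them. Its circular RNA stood at 266, 55.3 and 179 CPM in kid and 720, 501 and 539 CPM in fetus. All kid libraries were below all fetus libraries, and kid 2 was lowest with 2 reads. The level was 167 ± 106 CPM in kid and 586 ± 117 CPM in fetus (SD, n = 3 each), 3.24-fold lower in kid (log2 -1.70 ± 0.45, edgeR adjusted p = 0.0107). The call was lost without fetus 1 (0.0627), with valid reads as library sizes (0.053) and with fetus 3 alone (0.167).

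Of 7 ESYT2 circRNAs, that of exons 2 to 6 (circRNA4534, 417 bases, chromosome 4, plus strand, 402304 to 410183) held 86.0% of the reads. It had 13, 2 and 9 reads in kid and 26, 15 and 27 in fetus. It was 3.85-fold lower in kid (log2 -1.94 ± 0.45, edgeR adjusted p = 0.0130), at 122 ± 66.1 CPM against 506 ± 137 CPM in fetus (SD, n = 3 each), and missed the threshold without fetus 1 (0.0548). A related circle that starts at exon 3 and shares its end (375 bases) had 1, 0 and 1 reads in kid and 0, 2 and 2 in fetus.

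PICALM, the clathrin assembly protein of endocytosis, overlapped between the stages. It had 872, 470 and 863 CPM in kid and 667, 795 and 851 CPM in fetus, with kid 2 lowest. The log2 fold change was -0.04 ± 0.30 with a 95% interval of -0.63 to 0.55 (edgeR, adjusted p = 0.944), so a change within that interval remains possible. Its 235 reads were divided over 22 exonic circRNAs on chromosome 29, and its leading circle, of exons 2 to 5 (circRNA12545, 416 bases), held only 20.0%. That circle had 14, 4 and 14 reads in kid and 2, 5 and 8 in fetus (log2 0.66 ± 0.56, edgeR adjusted p = 0.465). Its share of the PICALM reads was 23.7%, 23.5% and 24.1% in kid and 8.00%, 18.5% and 16.3% in fetus, higher in every kid library (exact permutation test, two-sided, p = 0.100, the smallest possible). The intervals of these shares were wide, 14.7% to 36.0% in kid 1 and 2.22% to 25% in fetus 1. The test of unequal change covered only 2 of the 22 PICALM circRNAs and did not pass. It gave F = 0.133 with an adjusted p of 0.867, rank 310 of 374 hosts (edgeR diffSpliceDGE).

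The PICALM circles were built mostly on exon 2. The 10 circRNAs that start at 8978539, the start of exon 2, took 58.3% of the reads, and they ended at exons from 3 to 20. A circle of exons 2 to 20 (1895 bases) had 3, 0 and 4 reads in kid and 7, 0 and 0 in fetus. The start at exon 9 (9003287), used by 3 circRNAs, took 23.9% of the reads in kid and 8.91% in fetus. One of these, of exons 9 to 18 (circRNA16564, 1053 bases), had 3, 3 and 7 reads in kid and none in fetus, at least 3.30-fold higher in kid, taking 3 reads in the whole fetus group as the floor. It had too few reads for the test, and that bound would drop to 55.5% of its value without fetus 3.

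UBAP2 and FBXW7 are linked to ubiquitin. UBAP2 carries a ubiquitin-associated domain. Its summed circular RNA was 591, 829 and 714 CPM in kid and 1067, 648 and 556 CPM in fetus, with fetus 1 highest and the stages overlapping. The log2 fold change was -0.09 ± 0.31 with a 95% interval of -0.70 to 0.52 (edgeR, adjusted p = 0.888). The test of unequal change over its 3 tested circRNAs gave F = 15.0 with an adjusted p of 0.00315, rank 5 of 374 hosts (edgeR diffSpliceDGE). Of the 3, only a circRNA listed as intronic, with no fetus read, differed by itself from the rest of the gene (diffSpliceDGE, adjusted p = 0.0122). The exonic circles did not (0.302 and 0.995). The circRNA listed as intronic met the read filter in kid libraries only, where it is high. Neither its p nor that of the F test is therefore independent support.

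All 3 tested UBAP2 circRNAs share the upstream site at 75174221 on chromosome 8, minus strand. The circle of exons 6 to 11 (circRNA5601, 684 bases) had 15, 12 and 20 reads in kid and 10, 10 and 17 in fetus, at 270 ± 51.7 CPM against 269 ± 13 CPM (log2 -0.02 ± 0.38, edgeR adjusted p = 0.98). A 4-exon circle of 280 bases (circRNA6748) had 4, 4 and 9 reads in kid and 20, 8 and 10 in fetus. Its CPM was lower in every kid library, at 96.4 ± 37.4 CPM against 298 ± 186 CPM in fetus (SD, n = 3 each), with a log2 fold change of -1.58 ± 0.57 and an adjusted p of 0.0836. With total back-splice reads as the only scaling it passed (0.0479). Its share of the UBAP2 reads was 10%, 13.3% and 18.8% in kid and 50.0%, 36.4% and 31.2% in fetus, without overlap (exact permutation test, two-sided, p = 0.100, the smallest possible).

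The third, listed as intronic (ciRNA1760, 506 bases, 75173716 to 75174221), had 12, 9 and 5 reads in the kid libraries and none in the fetus libraries. This is at least 6.61-fold higher in kid, with 3 reads in the whole fetus group as the floor (edgeR, adjusted p = 0.0225). It entered the test only through its kid libraries, where it is high, so this p is no independent support. The call was lost when any 1 fetus library was left out (0.0532 to 0.0550), the bound would drop to 55.5% of its value without fetus 3, and without a kid library the circle had too few reads to be tested. With exonic circRNAs only, the unequal change of UBAP2 did not pass (F = 4.78, adjusted p = 0.238), nor did it when any 1 kid library was left out (0.356 to 0.433). Taken as a class, the intronic circRNAs of UBAP2 held 37.5%, 43.3% and 22.9% of its reads in kid and 2.50%, 0% and 6.25% in fetus. The 95% interval of the class share in kid 3, the lowest of the kid libraries, was 13.3% to 36.5%. In fetus 3 it was 1.73% to 20.1%. The class includes the circRNA of 506 bases, which alone held 30.0%, 30.0% and 10.4% of the UBAP2 reads in kid. The class share is therefore no separate support.

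**Figure D4:**
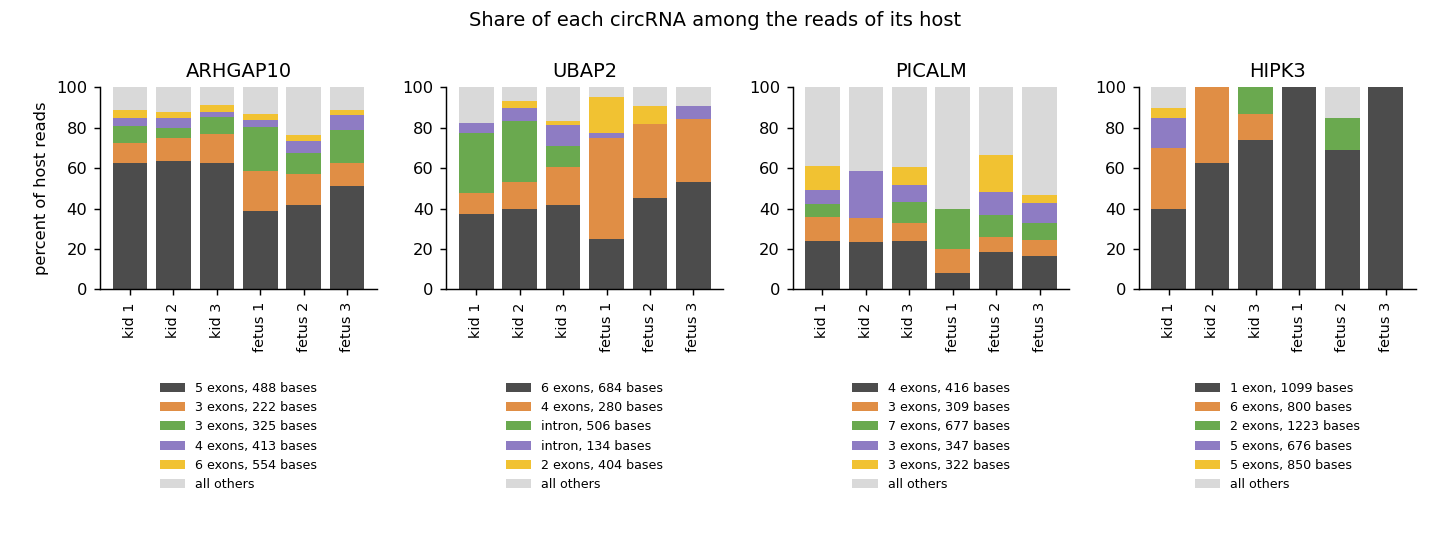
Share of each circRNA among the back-splice reads of its host (vertical axis, percent) in the 3 kid and the 3 fetus libraries. Shown are 4 hosts with several circRNAs. The 5 circRNAs with the most reads are coloured and named by their count of exons, or as intron, and by length. The rest is grey. The leading circle of ARHGAP10 takes 62.3% to 63.6% in kid and 39.0% to 51.0% in fetus. The UBAP2 circRNA of 506 bases, listed as intronic, has reads in all kid libraries and none in the fetus libraries.

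FBXW7, the substrate-binding subunit of an SCF ubiquitin ligase that targets cyclin E and MYC, had 5, 1 and 4 reads in kid and 0, 0 and 3 in fetus. Its circle of exons 5 to 7 (375 bases) had 3, 1 and 4 reads in kid and none in fetus, at least 2.03-fold higher in kid against the floor, or 1.13-fold without fetus 3. Its circle of exons 2 and 3 (614 bases) had no read in kid and 3 reads in fetus 3. Neither circle had enough reads for the test.

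The remaining hosts encode nuclear proteins. HIPK3, a homeodomain-interacting protein kinase, had 296, 221 and 342 CPM in kid and 240, 383 and 139 CPM in fetus, which overlapped. The log2 fold change was 0.25 ± 0.47 with a 95% interval of -0.68 to 1.18 (edgeR, adjusted p = 0.762). Its leading circle was exon 2 alone (circRNA775, 1099 bases, chromosome 15, minus strand, 19007781 to 19008879), the exon from which human circHIPK3 is made. It had 8, 5 and 17 reads in kid and 9, 9 and 8 in fetus (log2 -0.25 ± 0.51, edgeR adjusted p = 0.801).

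Other HIPK3 circles filled a variable part of the kid libraries. The exon 2 circle held 40.0%, 62.5% and 73.9% of the HIPK3 reads in kid and 100%, 69.2% and 100% in fetus, and the stages overlapped (exact permutation test, two-sided, p = 0.200). A circle of exons 3 to 8 (circRNA14970, 800 bases) had 6, 3 and 3 reads in kid and none in fetus, at least 3.05-fold higher in kid against the same floor, or 1.69-fold without fetus 3. It had too few reads for the test.

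SMARCA5, the ATPase of ISWI chromatin remodellers, had 133, 82.9 and 89.3 CPM in kid and 53.3, 206 and 243 CPM in fetus. Fetus 1 was below all kid libraries and the other 2 fetus libraries were above them. The log2 fold change was -0.72 ± 0.65 with a 95% interval of -1.98 to 0.55 (edgeR, adjusted p = 0.484). Its main circle joined exon 16 back to exon 15 (circRNA1216, 269 bases, chromosome 17, plus strand, 56631297 to 56631756), the exon numbers that human circSMARCA5 also carries. It had 6, 3 and 4 reads in kid and 2, 7 and 12 in fetus (log2 -1.02 ± 0.66, edgeR adjusted p = 0.338). A second circle, of exons 4 to 6 (382 bases), had 3, 0 and 1 reads in kid and 0, 0 and 2 in fetus.

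ZNF609, a zinc finger protein that takes part in transcriptional control, had 4, 3 and 5 reads in kid and 4, 4 and 3 in fetus. Its exon 2 circle (874 bases), from the exon that gives the circle studied in muscle precursor cells, had a single read, in fetus 1. Its circle of exon 3 (226 bases) had 0, 2 and 0 reads in kid and 1, 1 and 3 in fetus. The other 5 of its 7 circRNAs were listed as intronic, and those with at least 10% of its reads were 3. The one of 283 bases had 1, 0 and 3 reads in kid and 0, 1 and 0 in fetus. The one of 282 bases, which ends 1 base earlier, had 1 read in each kid library and none in fetus. The one spanning 54063 bases had 2, 0 and 0 reads in kid and 0, 2 and 0 in fetus, so reads of this gene were scattered over both stages. CDYL, a chromodomain protein of repressive chromatin complexes, had a single circRNA, of exon 2 (667 bases), with 0, 0 and 3 reads in kid and 2, 0 and 4 in fetus. At such depth neither host could be compared between the stages. In the shallowest library, fetus 2, 3 reads of a host correspond to 88.4 CPM.

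**Figure D5:**
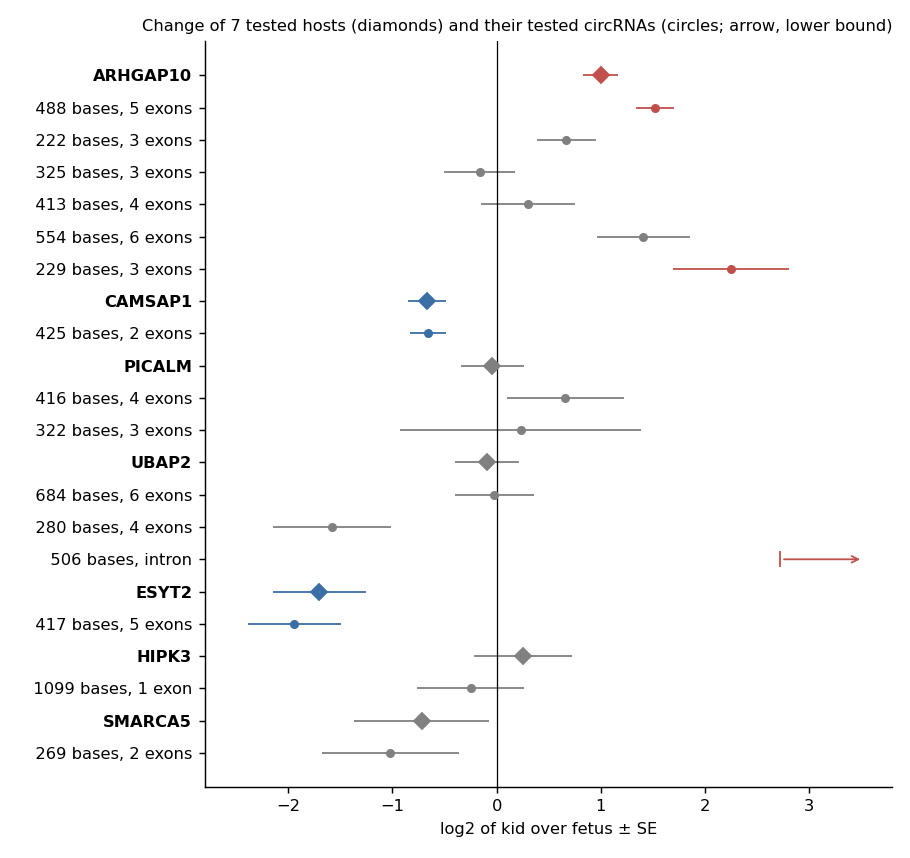
Log2 fold change of kid over fetus with its SE (horizontal axis) for the 7 tested hosts (diamonds) and their tested circRNAs (circles); red marks a call higher in kid, blue a call lower in kid, grey no call, and the arrow starts at the lower bound of a circRNA with no fetus read. ARHGAP10 (1.00) stands right of 0, CAMSAP1 (-0.67) and ESYT2 (-1.70) left of it, and the circRNAs of UBAP2 lie on both sides while the host itself stands at -0.09.

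Over single circRNAs, 15 of the 105 had enough reads to test (14.3%, against 8.15% of the circRNAs of all other hosts). Of these 15, 3 were higher in kid, 2 were lower and 10 did not pass. Among the 3 higher were the UBAP2 circRNA of 506 bases and the ARHGAP10 circle of exons 13 to 15, which met the read filter in kid libraries only. Of the 13 that met it through both stages, 1 was higher, 2 were lower and 10 did not pass, with a median log2 fold change of -0.02. For comparison, 15.2% of all 1960 tested circRNAs passed, 9.23% higher and 5.92% lower, and 211 of the 1960 met the filter through 1 stage only. In 8 of the 15, kid and fetus libraries did not overlap, against 37.2% of all tested circRNAs. The 8 include both circRNAs that met the filter in kid libraries only, and several circles of ARHGAP10 alone. This count is therefore no result about the hosts as a set. The median log2 fold change of all 15 was 0.23, also with the UBAP2 circRNA at its bound, against 0.07 for all tested circRNAs. Called circRNAs divided into 181 higher and 116 lower with TMM scaling into 146 higher and 181 lower with total back-splice reads as the only scaling, and into 130 higher and 78 lower with valid reads. Of the 105 circRNAs, 16 had reads in all 6 libraries (15.2%, against 7.10% of the rest) and 25 rested on 1 read (23.8%, against 35.5%). Their exonic circles had a median of 4 exons and 428 bases, against 3 exons and 452 bases in the rest. CircRNAs listed as intronic took 1.60% of their reads, against 7.44% in the rest. All 10 leading circRNAs were exonic, from 1 to 6 exons and from 226 to 1099 bases.

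In the authors' deposited table, 7 of the 125 entries of these hosts were marked significant, against 831 of all 25500. They are the leading circles of ARHGAP10 and ESYT2, the ARHGAP10 circle of exons 13 to 18, the HIPK3 circle of exons 3 to 8, the PICALM circle of exons 9 to 18 and the UBAP2 circRNAs of 280 and 506 bases. That table gives the leading ARHGAP10 circle a log2 of fetus over kid of -1.50 with a q-value of 0.00127. The ESYT2 circle has 1.95 with a q-value of 0.0716. The q-value is 0.00926 for the UBAP2 circRNA of 506 bases and 0.518 for that of 280 bases. It is 0.145 for the ARHGAP10 circle of exons 13 to 18, 0.256 for the PICALM circle and 0.307 for the HIPK3 circle. The mark therefore does not stand for a low q-value, and it is not equivalent to a call made here. The leading CAMSAP1 circle was not among the 7.

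A wider list of 60 further hosts of much-studied human or mouse circRNAs was set beside the 10. Of these, 53 had reads and 29 were tested; 2 were higher in kid, 1 was lower and 26 did not pass (10.3% called, against 19.3% of all hosts). Their median log2 fold change was 0.17, against 0.01 for all tested hosts. BNC2, a zinc finger transcription factor, had 557 ± 259 CPM in kid and 95.8 ± 47.6 CPM in fetus (SD, n = 3 each; log2 2.50 ± 0.52, edgeR adjusted p = 0.00156). DCAF6, a substrate receptor of CUL4 ubiquitin ligases that is abundant in muscle, had 1457 ± 303 CPM in kid and 845 ± 136 CPM in fetus (log2 0.78 ± 0.26, edgeR adjusted p = 0.0413). RIMS1, a scaffold of the presynaptic active zone, had 49.5 ± 52.3 CPM in kid and 327 ± 209 CPM in fetus (log2 -2.46 ± 0.72, edgeR adjusted p = 0.0203).

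Among 1681 other tested hosts with a gene symbol, those whose level over the 6 libraries was most like that of a called host were listed by Pearson's r of log2(CPM + 10), as a description with no test. This r compares the shape of a pattern and not its size. For ARHGAP10 they were LMO7 and PTGDR, both with r = 0.999, and 58 hosts had an r of 0.95 or more. LMO7 changed by 1.75 on the log2 scale, and PTGDR had 293 reads in kid and none in fetus, against 1.00 for ARHGAP10. For CAMSAP1 they were PIEZO2 (r = 0.994) and ITGA4 (r = 0.988), and for ESYT2 they were SPAG1 (r = 0.997) and OSBPL6 (r = 0.993). The 6 points of each pair share their libraries, their depth and the contrast of the stages.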

How the data were processed

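Circular RNA was profiled in 6 libraries of goat muscle. Per the labels' protocols, RNA depleted of ribosomal RNA was treated with RNase R to remove linear RNA, and strand-marked libraries were read as pairs of 150 bases. Tools named in the submitters' processing notes are FastQC, TopHat and cutadapt. Neither the caller of circRNAs nor the genome build was given in the sources used here. Per the file headers, the authors deposited back-splice counts for each circRNA in each library, a normalized signal (SRPBM), the percent of reads kept per library, and their own comparison with a log2 ratio (fetus over kid), a p-value and a q-value, whose test is not stated. The counts were used here, and the other values only as described. The back-splice counts differ from those of the deposited expression table in 38 values of 18 entries, none of them of the 10 hosts.

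Over the whole table, entries with starts 1 base apart and equal ends were added together (1508 circRNAs from 3030 entries). Host names given as gene numbers were replaced by symbols of the RefSeq gene table (ARS1.2), used for names only. Numbered entries outside the span of a host's symbol entries were kept out of it (5 entries, 31 reads). Overlapping genes can share reads. Features with 5 or more reads in 3 or more libraries were tested for kid over fetus by the robust quasi-likelihood F test of edgeR 4.0.16 (R 4.3.3), with TMM and Benjamini-Hochberg adjustment over all features tested. The SE of a log2 fold change was derived from it and F. CPM uses TMM-scaled library sizes. Unequal change used diffSpliceDGE. Shares were compared by exact permutation tests in scipy 1.17.1, with Wilson 95% intervals. A stage without reads was set to a floor of 3 reads over the group. Neither intervals nor floors reach beyond counting error, because reads copied by PCR are not separate molecules. The fits were tested on simulated data. Depth is given in the report.

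The alternatives were scaling, the read filter, each library left out, the replicate block, neighbouring entries, count source, host names, circRNA class and DESeq2 1.42.0. Fetus 3 alone, removal of each leading circRNA, and exonic circRNAs only for single circRNAs were added after seeing the data, as was the count of circRNAs by the stage through which they met the filter. The hosts and gene lists were chosen with earlier results of these data known. Named are all 10 hosts, of each the circRNA with the most reads, those with at least 10% of its reads and those that passed. Of the 60 further hosts, those with the smallest p among the called were named, and for each called host the 2 with the most similar levels. Other circRNAs in the text were chosen after their values were seen. The result of 1 marker list is not reported here.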

Additional observations from a re-analysis of the deposited data

How the results depend on the processing

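The log2 fold changes of ARHGAP10, CAMSAP1, ESYT2 and SMARCA5 kept their direction in every alternative run. With valid reads as library sizes, 200 hosts passed, 1 of the 10 hosts (ARHGAP10), and 10 hosts showed unequal change. With fetus 3 alone, 68 hosts and 0 of the 10, 18 circRNAs and 0 of theirs, and 0 unequal changes passed; this fit has 4 libraries. Without each leading circRNA, 108 hosts and 0 of the 10 passed. Leaving out 1 library gave 181 to 246 hosts, 1 to 3 of the 10 hosts, 150 to 214 circRNAs, 2 to 3 of those of the 10 hosts and 4 to 20 unequal changes. The causes of these shifts, beyond fewer libraries or reads, were not tested.

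Same-numbered libraries did not deviate together (correlations of 0.013, 0.032 and -0.043 over hosts) and the labels do not pair them. With the replicate block, 318 hosts, 229 circRNAs (4 of the 10 hosts' circRNAs) and 13 unequal changes passed. Under it the UBAP2 circRNA of 506 bases (adjusted p = 0.0809) and the unequal change of ARHGAP10 (0.0679) did not.

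Values near 0 changed sign. UBAP2 stood at 0.00 without the read filter, 0.02 with host names as listed and 0.31 with fetus 3 alone, and between -0.32 and 0.22 with a library left out. PICALM stood at 0.05 with valid reads and at 0.05 without the filter, and between -0.15 and 0.19 with a library left out. HIPK3 ran from -0.11 to 0.64 in those fits. The ARHGAP10 circles of exons 16 to 18 and 15 to 18 ran from -0.46 to 0.02 and from -0.06 to 0.59; that of exons 15 to 18 stood at -0.21 with fetus 3 alone. The HIPK3 exon 2 circle stood at 0.24 with fetus 3 alone. The PICALM circle of exons 2 to 4 ran from -0.35 to 0.69. The UBAP2 circle of exons 6 to 11 ran from -0.14 to 0.14 and stood at 0.09 without the filter. None of these passed in any fit.

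Depth limits ZNF609, FBXW7 and CDYL, which were not tested, and all but 15 of the 105 circRNAs.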

Other observations

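The table lists some circRNAs of these hosts under 2 entries whose starts lie 1 base apart. This held for 20 of their 105 circRNAs, made of 40 entries, and in all 20 no library had reads in both entries. In the whole series 1508 circRNAs were joined in this way, and in 1473 of them no library had reads in both. Within ARHGAP10 the unequal change among circles passed with the entries added (adjusted p = 0.0149) and not with the entries kept apart (edgeR diffSpliceDGE, adjusted p = 0.706).

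The UBAP2 circRNA of 506 bases, listed as intronic, carries a host number, not a symbol. It shares its upstream site at 75174221, the start of exon 6, with the exonic circle of exons 6 to 11. Both intronic entries of the 10 hosts that carry a number share a boundary with an exonic circRNA, and none of the 10 that carry a symbol does. In the rest of the series this held for 528 of 995 intronic entries with a number (53.1%) and for 0 of 1584 with a symbol. A further entry of this kind lies outside the span used for HIPK3: an intronic circRNA of 15886 bases that shares the boundary at 19007781 with the exon 2 circle had 9, 0 and 2 reads in kid and 2, 0 and 7 in fetus.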
